A study of Mus musculus with 24 samples.

Results

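The change in gene expression between the late 2-cell stage and the morula was described in wild-type mouse embryos across all genes. Its members are 8 of the 24 libraries of the series: 4 libraries of wild-type morulae and 4 of wild-type late 2-cell embryos (L2C), taken by their sample titles. Every library was made from a pool of 10 embryos. The design text gives the strain as B6D2F1, a hybrid of C57BL/6 and DBA/2, and describes zygotes from superovulated young females mated with males of that strain and grown in KSOM medium. The other 16 libraries come from embryos with Ttf1 or Zfp622 knocked out by Cas9 at the zygote stage. They were collected at the same pair of stages. Below they enter only as a repeat of the comparison and in an alternative fit of all 24 libraries. Wild-type titles begin with NC, an abbreviation left unexplained, and whether wild-type zygotes were injected is not stated. A pool of 10 embryos gives an average over embryos and over all cells of an embryo, so fewer cells with a transcript and less transcript per cell cannot be told apart.

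The fertilised mouse egg starts with RNA and protein that the oocyte stored. Much of that maternal RNA is removed while the embryo's own genome is switched on, with the major wave of transcription at the late 2-cell stage. A short-lived set of genes, among them the Zscan4 and Obox families, is known to be transcribed in that wave. By the morula stage the cells have compacted through E-cadherin, have become polarised, and begin to separate into an outer layer, the future trophectoderm, and an inner group that will form the inner cell mass. Hippo signalling, which holds the coactivator YAP1 out of the nucleus in inner cells, is the known switch of that choice.

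Total counts per library ran from 14363767 to 17807596 in morulae and from 10538723 to 12686381 at L2C. Levels are given as CPM, counts scaled to a library of equal size after TMM correction, which sets libraries side by side on the assumption that most genes do not change, or as TPM, which also divides by gene length and is used for pairs of genes and for the order of levels. Errors are SD over 4 libraries unless SE is written, and genes were tested with edgeR, with p-values adjusted over all genes tested and called at an adjusted p of at most 0.05. Sums of stage markers were in the direction of the labels: 9 markers of the 2-cell stage summed to between 21.9 and 50.7 CPM in the morula libraries, against 973 to 1562 CPM in the L2C libraries. The summed level of 6 pluripotency markers was 1053 to 1143 CPM in morulae, against 69.6 to 74.7 CPM at L2C, and that of 7 trophectoderm markers was 574 to 657 CPM, against 98.96 to 113 CPM. Nanog carried most of the pluripotency sum, and a member of each set, Klf4 (31.8 CPM in morulae, 42.7 at L2C) and Dppa1 (1.49 CPM in morulae, 2.84 at L2C), was lower. The call of Dppa1 was lost without morula 3, morula 4 or L2C 3, and with all 24 libraries in the fit. It was also lost without the 3 libraries that have an extra number in their alignment file names.

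Markers of cells that can adhere to embryos were low at both stages. For cumulus and granulosa cells 10 markers summed to between 1.89 and 4.22 CPM in morulae and between 3.95 and 9.04 CPM at L2C, with 1 of them without a count in any of the 8 libraries. Those of sperm, 7 genes, reached at most 0.496 CPM in morulae and 0.976 CPM at L2C, and 2 had no count. Blood markers, also 7 genes with 4 at 0, summed to between 1.29 and 2.98 CPM in morulae and between 6.38 and 14.9 CPM at L2C, most of it Hba-a1, a haemoglobin chain. All 8 libraries were sequenced in the same numbered lane, per the names of alignment files in the file headers. For 3 of them (L2C 4, morula 3 and morula 4) an extra number stands before the lane there, and its meaning is not stated.

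Most of the transcriptome changed. Of 16490 genes tested, 14327 were called (86.9%), 6586 higher (39.9%) and 7741 lower (46.9%) in morulae than at L2C. Libraries of the stages did not overlap in level for 13681 genes (83%). The changes were large, and for genes at 0 in all libraries of a stage the fold was set at the bound that a count of 3 over the group allows. At least 4-fold higher were 2951 genes, and at least 4-fold lower 4470. For 16-fold the numbers were 771 higher and 2369 lower, and for 64-fold 189 and 808. Against this background a share of changed genes near 87% in a gene list is not a result about that list, and what is read below is the direction and the size. Over all genes tested the median log2 fold change was -0.23.

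Levels are relative, because the files hold no count of RNA added from outside. RNA was primed on poly(A) tails, so levels of all genes are those of the tailed or captured part, and tail length was not measured. With 86.9% of genes called, the TMM assumption that most genes do not change was not met, so levels and fold changes depend on the scaling. Scaled to total counts alone, the median log2 fold change of all genes is lower by 0.54, at -0.77. The calls then split into 5275 higher and 9138 lower, 36.6% higher in place of 46%; 13016 of the 14327 calls stood and 127 turned round. The majority direction was the same under both scalings in 33 of 40 gene lists, and the exceptions are named where they occur.

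**Figure D1:**
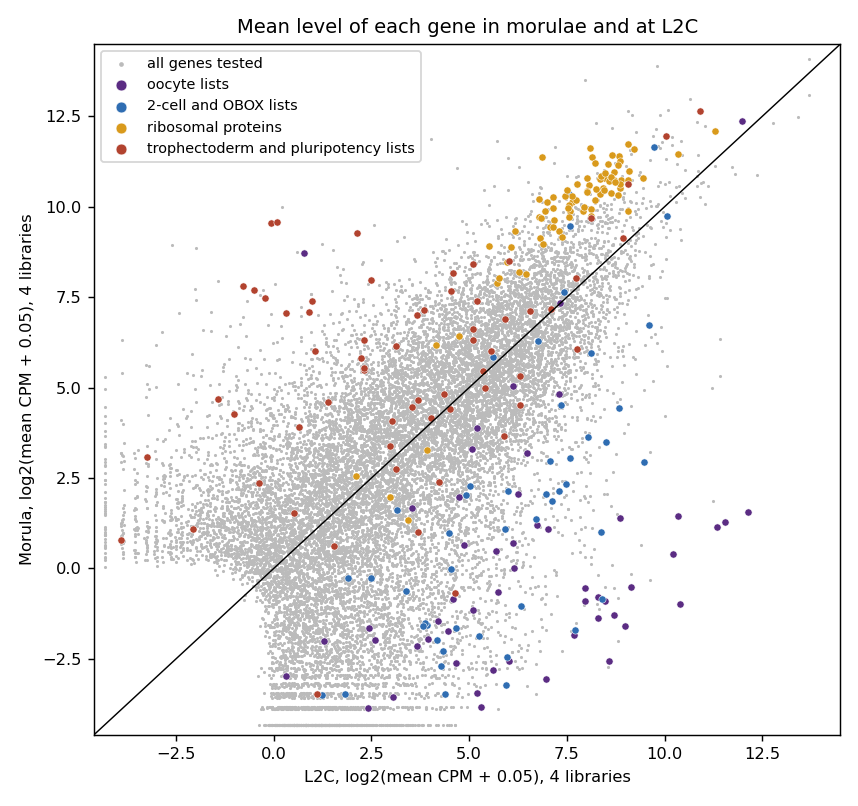
Mean level of each gene tested in the 4 morula libraries (vertical axis) and the 4 L2C libraries (horizontal axis), both as log2 of CPM plus 0.05, with the diagonal marking equal levels. Purple and blue points, members of the oocyte, 2-cell and OBOX lists, lie mostly below the diagonal, down to the floor of the morula axis. Ribosomal protein genes in yellow form a group above it at high levels, apart from a few near or below it. Trophectoderm and pluripotency genes in red spread above it from L2C levels below 1 CPM.

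Genes called higher made up 80.2% ± 0.0837 of all counts in morulae and 35.7% ± 1.22 at L2C. Genes called lower made up 14.2% ± 0.0707 in morulae and 56% ± 1.31 at L2C. Both sets were defined by calls in these same libraries, so the direction of this shift follows largely from their choice. Some genes went across the whole range: 233 had at least 10 CPM in morulae and under 1 CPM at L2C, and 673 had under 1 CPM in morulae and at least 10 CPM at L2C. At 10 CPM or more in both stages stood 5751 genes, of which 5008 were called; for 784 of them the 95% interval of the log2 fold change lay within 0.5 of 0. Spread between pools was small against these changes. The common biological coefficient of variation was 0.119 within morulae and 0.161 within L2C, and the first principal component, which separated the stages, held 94.7% of the variance.

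The morula transcriptome was more concentrated in few genes. In morulae 410 ± 9.5 genes made up 50% of the counts, against 746 ± 24.8 genes at L2C, and the 100 genes with most counts took 27.3% ± 0.439, against 21.9% ± 0.456. After thinning all libraries to the same depth, 12712 ± 91 genes had at least 10 counts in morulae and 15742 ± 107.5 at L2C. Mitochondrially encoded genes took 2.36% ± 0.0906 of counts in morulae and 5.82% ± 0.226 at L2C. Genes with a single exon, which include the mitochondrially encoded ones, took 6.92% ± 0.0936 and 10.38% ± 0.293. The differences, morula minus L2C, were nearly equal (-3.45 for mitochondrially encoded and -3.46 for single-exon genes), so the single-exon share is not a separate result. The X chromosome took 3.83% ± 0.402 of counts in morulae and 3.07% ± 0.0886 at L2C. All 7 library values compared did not overlap between stages, and each gave a two-sided exact permutation p and adjusted p of 0.0286, the smallest that 4 against 4 libraries allow.

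Of the 12 largest rises among genes with at least 20 CPM, predicted genes, clones and pseudogenes left out, several were without counts at L2C. Serpinb6c, a gene for an intracellular inhibitor of serine proteases (chromosome 13, 33879816 to 33905708, minus strand, GRCm38), had 42.7, 40.9, 35.6 and 36.6 CPM in morulae, against 0, 0, 0 and 0 CPM at L2C, which makes it at least 709-fold higher. Apoa1, the main apolipoprotein of high-density lipoprotein, was at least 568-fold higher with a mean of 31.2 CPM in morulae, and Msc, a basic helix-loop-helix factor, at least 404-fold higher with 22.2 CPM in morulae. Vnn1, which encodes the pantetheinase vanin, stood at 537, 449, 439.9 and 523 CPM in morulae, against 0.0718, 0.316, 0 and 0.0679 CPM at L2C (log2 fold change 11.997, SE 0.21, adjusted p = 3.61e-18). Fbp2, a fructose-bisphosphatase of gluconeogenesis, showed 1045, 1113, 1004 and 942 CPM in morulae, against 1.004, 1.18, 1.05 and 1.15 CPM at L2C (log2 fold change 9.86, SE 0.12, adjusted p = 1.73e-20). Its lowest morula library lay far above every L2C library, and the spread within each stage was a small part of that gap.

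Nanog, the homeobox factor of naive pluripotency (chromosome 6, 122707489 to 122714633, plus strand), had 778, 726, 702 and 783 CPM in morulae, against 1.15, 1.34, 0.751 and 0.3396 CPM at L2C (log2 fold change 9.71, SE 0.17, adjusted p = 4.12e-18). Sycn, a gene best known from pancreatic zymogen granules as syncollin, had 133 ± 3.28 CPM in morulae and 0.135 ± 0.228 CPM at L2C. The X-linked homeobox gene Rhox5 had 42.3 ± 19.1 CPM in morulae and 0.0179 ± 0.0359 CPM at L2C, where a single count at L2C sets the level. Serpinb9b, also with 1 count at L2C, had 79.3 ± 15.6 CPM in morulae and 0.0179 ± 0.0359 CPM at L2C, and the noncoding gene Eprn 92.8 ± 9.40 CPM in morulae and 0.0868 ± 0.103 CPM at L2C. BC048679 was also among the 12 largest rises (72.5 CPM in morulae, 0.0735 at L2C). Only genes whose stages did not overlap could enter this ranking.

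The 12 largest falls were taken by the same rule, which leaves out predicted genes, clones and pseudogenes. They include Tcl1b1 and Tcl1b4, members of a tandem family beside the AKT coactivator Tcl1 on chromosome 12. Tcl1b1 stood at 0.411, 0.248, 0.408 and 0.755 CPM in morulae, against 1461, 1178, 1059 and 1735 CPM at L2C (log2 fold change -11.50, SE 0.27, adjusted p = 2.75e-12). Tcl1b4 had 0.120 ± 0.0804 CPM in morulae and 381 ± 80.9 CPM at L2C. Omt2b, a small oocyte-specific gene (chromosome 9, 78327589 to 78329620, plus strand), had 3.28, 2.56, 3.54 and 2.27 CPM in morulae, against 4213, 4188, 4447 and 5139 CPM at L2C (log2 fold change -10.58, SE 0.13, adjusted p = 2.78e-20). Hnmt, the histamine N-methyltransferase, had no count in any morula library and 25.1 CPM at L2C, at least 436-fold lower. In the same way the orphan nuclear receptor gene Esrrg was at least 388-fold lower (22.3 CPM at L2C), Gabra3, a subunit of the GABA-A receptor, at least 372-fold lower (21.4 CPM), and Pcdh15, a protocadherin of hair-cell tip links, at least 352-fold lower (20.2 CPM). Mfap2, a protein of extracellular microfibrils, had 0.0170 ± 0.0340 CPM in morulae and 53.2 ± 11.6 CPM at L2C.

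Genes that gained most were ranked by the difference in CPM, which is not divided by gene length, and the first 2 were chaperones. Hsp90aa1, the inducible cytosolic HSP90, had 15865, 14258, 14889 and 15330.0 CPM in morulae, against 799.5, 1007, 859 and 943 CPM at L2C, and Hspa8, the constitutive HSC70, had 11173, 11704, 11779 and 12065 CPM in morulae, against 253, 294, 244 and 208 CPM at L2C. The nucleolar chaperone Npm1 followed (8107 CPM in morulae, 1612 at L2C), then the HSP40 protein Dnaja1 (6420.3 CPM in morulae, 531 at L2C). The constitutive HSP90 gene Hsp90ab1 (5941 CPM in morulae, 569.9 at L2C) and Eef1a1, which brings aminoacyl-tRNA to the ribosome (4634 CPM in morulae, 404 at L2C), were also among the 10 largest gains. The rest were the alkaline phosphatase Alppl2 (6523 CPM in morulae, 1080.4 at L2C), the receptor Timd2 (5955 CPM in morulae, 941 at L2C), the F-box gene Fbxo15 (6430.0 CPM in morulae, 1929 at L2C) and the autophagy receptor Calcoco2 (5116 CPM in morulae, 305 at L2C). Among the 10 largest losses were 4 mitochondrially encoded genes and the oocyte genes Omt2b, Omt2a and Oog3. The others were Spin1, a reader of histone H3 methylation (39.9 CPM in morulae, 2737 at L2C), Mdm4, an inhibitor of p53 (80.9 CPM in morulae, 2741 at L2C), and Ccdc6 (31.5 CPM in morulae, 2367 at L2C).

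Promoters of genes at both ends of the change are shown as reference sequence from RefSeq (GRCm38.p6), the 250 bases before the start of transcription, because the motif searches below were run on such windows. Nanog (chr6:122707239-122707488, plus strand) and Aqp3, an aquaglyceroporin (chr4:41098184-41098433, minus strand), were higher in morulae; Bmp15, an oocyte growth factor (chrX:6320725-6320974, minus strand), and Zscan4c, a telomere factor of the 2-cell stage (chr7:11005495-11005744, plus strand), were lower. Capitals mark every match to the motifs searched, on either strand. Nanog has an octamer (ATGCAAA, read on the other strand) 75 bases before the start. Aqp3 has an SP/KLF box (GGGCGG, other strand) 73 bases and a TATA box (TATAAA) 29 bases before it. In Bmp15 a TEAD motif (CATTCC) lies 206 bases and a TATA box (other strand) 155 bases before it. In Zscan4c a TATA box lies 54 bases and a CCAAT box 42 bases before it.
Nanog: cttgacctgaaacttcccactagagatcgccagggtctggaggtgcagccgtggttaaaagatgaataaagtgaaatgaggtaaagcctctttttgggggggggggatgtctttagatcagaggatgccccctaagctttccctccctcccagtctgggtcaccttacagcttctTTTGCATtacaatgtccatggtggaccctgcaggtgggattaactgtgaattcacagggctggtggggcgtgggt
Aqp3: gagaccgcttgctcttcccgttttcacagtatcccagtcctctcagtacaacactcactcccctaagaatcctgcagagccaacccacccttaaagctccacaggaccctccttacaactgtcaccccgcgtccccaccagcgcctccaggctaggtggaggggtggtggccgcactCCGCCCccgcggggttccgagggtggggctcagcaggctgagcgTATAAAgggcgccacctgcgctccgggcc
Bmp15: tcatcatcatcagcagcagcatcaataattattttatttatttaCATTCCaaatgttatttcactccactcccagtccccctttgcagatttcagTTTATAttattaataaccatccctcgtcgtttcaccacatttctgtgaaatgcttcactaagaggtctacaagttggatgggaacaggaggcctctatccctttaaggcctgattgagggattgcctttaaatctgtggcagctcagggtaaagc
Zscan4c: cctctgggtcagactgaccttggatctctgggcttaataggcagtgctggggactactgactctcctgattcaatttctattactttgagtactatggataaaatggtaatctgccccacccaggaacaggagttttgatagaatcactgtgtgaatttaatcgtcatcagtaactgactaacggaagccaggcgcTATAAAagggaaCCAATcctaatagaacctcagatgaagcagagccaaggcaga

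Motif shares in the promoters of changed genes were set beside those of all promoters, with no test. RefSeq promoters matched 10866 of the 16490 genes tested, 1830 of the 2951 genes at least 4-fold higher and 2734 of the 4470 at least 4-fold lower. The ETS motif (CCGGAA) was in 19.7% of promoters of the higher genes and 13.5% of those of the lower genes, against 21.9% of all. GGGCGG was in 52.7% and 48.4%, against 55.7% of all, CRE (TGACGT) in 8.96% and 6.40%, against 9.73%, and the TEAD motif in 11.9% and 11.6%, against 10.6%. The octamer was in 3.17% and 3.33%, against 3.20% of all, and TATAAA in 8.14% and 8.85%, against 7.10%. Both sets were poorer in CpG, with a median of 13 CpG in the higher and 12 in the lower genes, against 15 in all. A match is only a run of letters within this window.

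Transcripts known to be stored in the oocyte were mostly low in morulae. Of 28 tested genes of the subcortical maternal complex, a protein assembly under the oocyte membrane, and of the oocyte cytoplasm, 27 were lower and 1 was higher, with a median log2 fold change of -9.12. Together they held 0.0409% ± 0.00144 of all counts in morulae and 2.09% ± 0.213 at L2C. Oog3, a leucine-rich repeat gene of the oocyte, had 1.72, 2.15, 2.52 and 2.19 CPM in morulae, against 2387, 2407, 2719 and 2936 CPM at L2C (log2 fold change -10.23, SE 0.13, adjusted p = 1.74e-20). Zbed3, a member of the complex, had 0.653 ± 0.264 CPM in morulae and 566 ± 39.5 CPM at L2C (adjusted p = 2.96e-19, log2 fold change -9.70). The other members of the complex did not fall alike. Nlrp5 (MATER) had 1.59 ± 0.232 CPM in morulae and 70.1 ± 3.40 CPM at L2C. Tle6 had 3.86 ± 0.714 CPM in morulae and 26.6 ± 0.457 CPM at L2C. Smaller falls were those of Ooep, which encodes FLOPED, with 9.89 ± 1.74 CPM in morulae and 33.8 ± 5.54 CPM at L2C, and of Padi6, a peptidylarginine deiminase, with 33.2 CPM in morulae, 69.99 at L2C.

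Khdc3, which encodes FILIA, a KH-domain protein of the same complex, went the other way. It had 396, 419.7, 428 and 442 CPM in morulae, against 1.22, 1.97, 1.95 and 1.49 CPM at L2C (log2 fold change 7.99, SE 0.12, adjusted p = 2.96e-19), so that every morula library lay far above every L2C library. Within the Nlrp family of the oocyte, Nlrp9c (0.526 CPM in morulae, 313 at L2C), Nlrp14 (2.09 CPM in morulae, 131 at L2C), Nlrp4f (2.25 CPM in morulae, 105.9 at L2C) and Nlrp2 (0.211 CPM in morulae, 15.4 at L2C) were all lower. Levels of the Tcl1b, Omt2, Oog, Oosp and Nlrp genes rest on reads that map to a single place, since reads shared between near-identical copies were not counted.

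Genes of the zona pellucida, the egg coat, and of oocyte growth and egg activation were lower in 23 of 25 cases, 1 was higher and 1 was not called, with a median log2 fold change of -5.57. Bmp15 and Gdf9 are the growth factors that the oocyte sends to its follicle cells. Bmp15 had 2.38, 2.23, 2.99 and 2.72 CPM in morulae, against 428, 454, 445 and 518 CPM at L2C (log2 fold change -7.47, SE 0.12, adjusted p = 3.52e-19). Gdf9 had 0.951 ± 0.409 CPM in morulae and 71.5 ± 6.15 CPM at L2C (adjusted p = 7.66e-16, log2 fold change -6.19). The egg-coat genes fell to different levels. Zp1 had 0.504 CPM in morulae, 24.1 at L2C, Zp2 1.34 CPM in morulae, 51.2 at L2C and Zp3 9.09 ± 2.38 CPM in morulae and 89.3 ± 9.03 CPM at L2C. Rfpl4, an oocyte RING-finger gene, had 0.486 ± 0.236 CPM in morulae and 358 ± 38.5 CPM at L2C (adjusted p = 1.41e-18, log2 fold change -9.47). Bcl2l10, a member of the BCL2 family abundant in oocytes, had 0.633 ± 0.297 CPM in morulae and 248 ± 38.1 CPM at L2C (adjusted p = 1.18e-16, log2 fold change -8.60). Rnf114, a ubiquitin ligase, was not called (162 ± 11.3 CPM in morulae and 162 ± 11.8 CPM at L2C). Dppa3, which encodes STELLA and protects the maternal genome from demethylation, was higher with TMM (5289.7 ± 139 CPM in morulae and 4014 ± 526 CPM at L2C, log2 fold change 0.40) and not called with total counts (-0.14).

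Of the machinery that removes maternal mRNA, 22 of 39 genes were lower, 12 higher and 5 not called. Over all genes tested 46.9% were lower and 39.9% higher. Btg4, the adaptor that brings the CCR4-NOT deadenylase to maternal mRNA at the egg stage, had 0.821, 0.744, 0.884 and 0.529 CPM in morulae, against 655, 828, 722 and 974 CPM at L2C (log2 fold change -10.04, SE 0.18, adjusted p = 6.82e-18). The deadenylase subunits Cnot6l (13.8 CPM in morulae, 152 at L2C), Cnot7 (152 CPM in morulae, 335 at L2C) and Pan3 (64.7 CPM in morulae, 449 at L2C) and the decapping enzyme Dcp2 (16.5 CPM in morulae, 149 at L2C) were also lower. Subunits Cnot9 (195 CPM in morulae, 87.8 at L2C), Cnot2 (176 CPM in morulae, 84.5 at L2C) and Cnot11 (27.2 CPM in morulae, 7.57 at L2C) were higher. So were the decapping enhancer Edc3 (24.5 CPM in morulae, 2.21 at L2C) and Igf2bp1, which binds and stabilises mRNA (121 CPM in morulae, 16.6 at L2C). The scaffold Cnot1 was not called (269 CPM in morulae, 245 at L2C).

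For 18 functions with a germline or oocyte form and a form used in most cells, the ratio of the pair in TPM was lower in all morula libraries than in all L2C libraries for 17 pairs and higher for 1. The oocyte form was lower in 15 pairs, while the general form was higher in 8 and lower in 5. Btg4 stood at 0.560 TPM in morulae and 861 TPM at L2C beside its relative Btg1 at 31.7 and 40.3 TPM. Wee2, the oocyte kinase that inhibits CDK1, had 0.153 TPM in morulae and 172 TPM at L2C, and Wee1 15.1 and 43.8 TPM, so that the oocyte form was the more abundant at L2C and the rarer in morulae. The linker histone H1foo had 0.941 TPM in morulae and 123 TPM at L2C beside H1f0 at 14.53 and 25.0 TPM. Nucleoplasmin, Npm2, had 7.59 TPM in morulae and 203 TPM at L2C, and its general relative Npm1 5841 and 1681 TPM.

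Tcl1 fell to 2.82 TPM in morulae, against 1953 TPM at L2C, and its relative Mtcp1 had 0.785 and 0.0673 TPM. Fbxo43, the inhibitor of the anaphase-promoting complex that holds the egg in metaphase, had 0.0536 TPM in morulae and 17.5 TPM at L2C, against 173 and 222 TPM for Fbxo5. The pair that turned the other way was meiotic cohesin: Rec8 had 2.62 TPM in morulae and 0.0978 TPM at L2C (adjusted p = 2.11e-08, log2 fold change 5.08), while Rad21 was lower by a small margin (log2 fold change -0.25). Aurkc, the Aurora kinase of germ cells, was not called (82.1 ± 18.9 CPM in morulae and 85.3 ± 3.29 CPM at L2C), while its ratio to Aurkb was lower. The choice of pairs was made with earlier results of these data known.

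**Figure D2:**
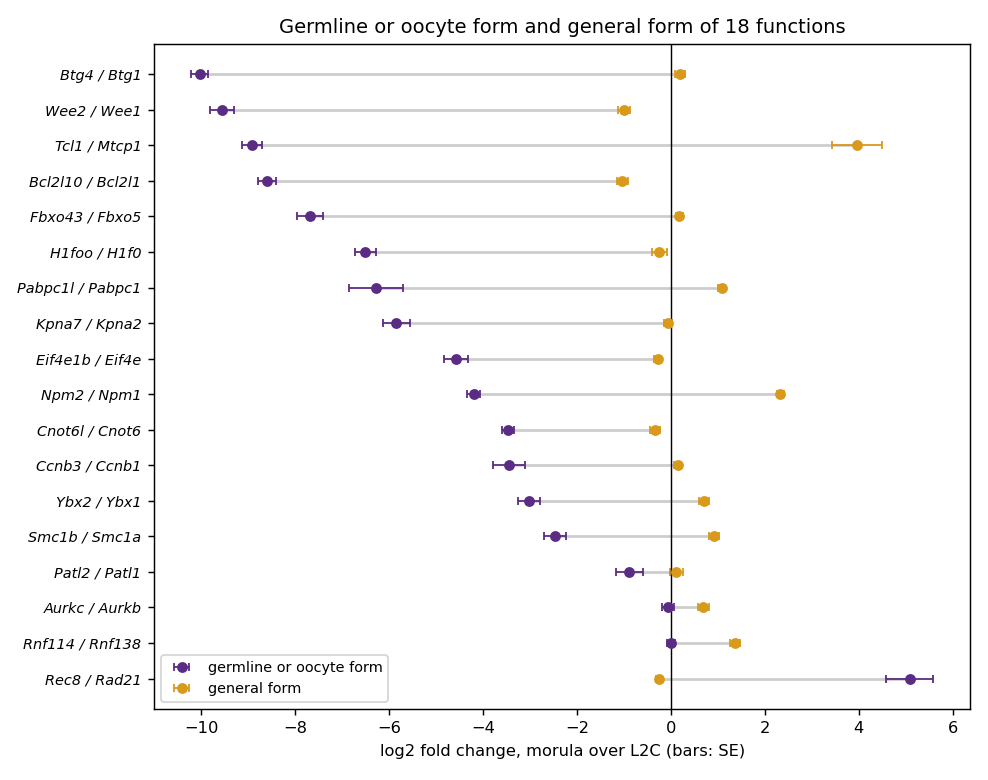
Log2 fold change of morula over L2C (horizontal axis, bars are SE) for the germline or oocyte form (purple) and the general form (yellow) of 18 functions, with pairs ordered by the oocyte form. Purple points run from -10.04 for Btg4 to 5.08 for Rec8, while yellow points lie between -1.03 for Bcl2l1 and 3.96 for Mtcp1; the fitted value of Pabpc1l rests on 2 counts in the morula libraries.

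Genes of the 2-cell burst were lower in 36 of 42 cases, higher in 5 and not called in 1, with a median log2 fold change of -4.46. Zscan4d, a zinc-finger gene that acts on telomeres, had 0.411, 0.165, 1.09 and 0.0755 CPM in morulae, against 70.6, 55.1, 102.8 and 94.2 CPM at L2C (log2 fold change -7.43, SE 0.42, adjusted p = 6.01e-08). Usp17lb, a deubiquitinase of the Usp17 family, showed 2.13, 1.65, 2.11 and 1.89 CPM in morulae, against 331, 230.1, 354 and 413 CPM at L2C (adjusted p = 6e-13, log2 fold change -7.40). Tcstv3 had 11.2 ± 3.48 CPM in morulae and 360.1 ± 76.2 CPM at L2C (adjusted p = 7.45e-08, log2 fold change -5.02). The zinc-finger factor Klf17 had 21.6 ± 0.325 CPM in morulae and 458 ± 23.7 CPM at L2C (adjusted p = 1.93e-18, log2 fold change -4.41). For the phosphate transporter Slc34a2 the levels were 106.9 ± 4.77 CPM in morulae and 772 ± 48.9 CPM at L2C (adjusted p = 1.46e-16, log2 fold change -2.85). Morula libraries differed among themselves in the residue. Zfp352, a zinc-finger gene, had 13.1, 6.78, 26.4 and 3.02 CPM in morulae, against 289, 209, 275 and 275 CPM at L2C. That is a range of nearly an order of magnitude within morulae, which still left the stages apart.

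Of the 5 members that were higher, Pramel6 (1309 CPM in morulae, 189 at L2C) and Pramel7 (1402 CPM in morulae, 349 at L2C) encode leucine-rich repeat proteins linked to the ground state in mouse embryonic stem cells. The others were the initiation factor gene Eif1a (701 CPM in morulae, 192 at L2C), the T-box factor Tbx3 (80.2 CPM in morulae, 33.9 at L2C) and Sp110. The small rise of Sp110 (0.21) turned to -0.32 with total counts. Tdpoz genes split. Tdpoz4 had 3.59 ± 0.777 CPM in morulae and 139 ± 21.8 CPM at L2C and Tdpoz1 22.7 CPM in morulae, 162 at L2C, while Tdpoz2 was not called (57.5 ± 10.2 CPM in morulae and 48.9 ± 12.2 CPM at L2C). The gene for the activator Dux was not among the genes tested. As for the oocyte families, reads shared between near-identical copies of Zscan4, Usp17, Tcstv, Tdpoz and Obox genes were not counted.

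Homeobox genes of the Obox family differed in how far they fell. Obox3 had 0.246, 0.414, 0.0680 and 0.302 CPM in morulae, against 179.5, 148, 228 and 276 CPM at L2C (log2 fold change -9.65, SE 0.33, adjusted p = 1.11e-10). Obox5 had 0.511 ± 0.231 CPM in morulae and 338 ± 38.3 CPM at L2C, and Obox8 7.66 ± 1.51 CPM in morulae and 706 ± 34.0 CPM at L2C. Obox1, Obox2 and Obox7 were lower as well, and Obox6 by a small margin (854 ± 12.3 CPM in morulae and 1065 ± 150.2 CPM at L2C, adjusted p = 0.00167, log2 fold change -0.32). Crxos, another divergent homeobox gene, was higher with 2933, 3412, 3118 and 3494 CPM in morulae, against 782, 970.3, 728 and 936 CPM at L2C (log2 fold change 1.92, SE 0.09, adjusted p = 1.39e-12). In all, 8 of 9 genes of this list were lower and 1 was higher.

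Some genes that fell are neighbours on a chromosome. There were 150 runs of at least 5 neighbouring tested genes that were all called lower at least 2-fold, with 1055 genes in all. Of higher genes there were 73 such runs, with 432 genes. Over all 16490 genes tested, 6328 were called lower at least 2-fold and 5151 higher. With shares that large some runs arise without any clustering, and whether the runs exceed that number was not tested. The longest run of lower genes held 34 on chromosome 12 from 87480108 to 88329682 (GRCm38), among them Oog1 and Gm8300, with a median log2 fold change of -5.46. A run of 28 genes on chromosome 7 from 13909676 to 15825815 holds the Obox cluster (median -7.15), and another of 21 genes on the same chromosome from 10687789 to 12086612 the Zscan4 cluster (median -6.50). Chromosome 3 from 93727026 to 94266784 has 20 neighbouring genes of the Tdpoz cluster, and chromosome 9 from 109095389 to 109790670 has 17 genes, most of them F-box genes of the Fbxw family, with a median of -6.94. The longest run of higher genes, 12 on chromosome 9 from 107254927 to 107593385, runs from Mapkapk3 to Ifrd2 and is no tandem family; another holds 9 genes of the histone cluster on chromosome 13 from 23553262 to 23622558. Members of a tandem family share sequence, so they are not independent.

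By class of gene, long noncoding genes fell most often: 66.6% of 1488 were lower and 20.6% higher, with a median log2 fold change of -2.11, against 46.0% lower and 41.1% higher of 12954 protein-coding genes (median -0.14). Pseudogenes, which share sequence with their parent genes, were higher in 50.5% and lower in 36.8% of 1553 cases. Coding genes with 1 exon were lower in 50.5% and higher in 30.7% of 394 cases. Among the genes with most TPM, 22 of the top 50, 37 of the top 100 and 253 of the top 500 were the same at both stages. Dppa5a, a KH-domain gene of pluripotent cells, had 12248 TPM in morulae and 4704 TPM at L2C, and mt-Cytb 9505 and 26674 TPM.

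Genes of the cytosolic ribosome rose almost as a block. In the large subunit 46 of 49 genes were higher and 3 were lower (median 2.43), and all 33 tested genes of the small subunit were higher (median 2.19, 32 of them with total counts). Together they took 9.12% ± 0.149 of counts in morulae and 2.89% ± 0.159 at L2C. Rpl3, at the peptidyl transferase centre, had 2547, 2572, 2702 and 2712 CPM in morulae, against 114, 137, 109.8 and 102 CPM at L2C (log2 fold change 4.51, SE 0.09, adjusted p = 4.88e-18). Rpl5, which carries 5S ribosomal RNA, had 3140.4 ± 91.2 CPM in morulae and 272 ± 30.9 CPM at L2C (adjusted p = 3e-17, log2 fold change 3.53). Rps3, at the mRNA entry site, had 2738 ± 64.2 CPM in morulae and 402 ± 28.9 CPM at L2C (adjusted p = 7.61e-17, log2 fold change 2.77). For Rpl8 the levels were 1238 ± 15.6 CPM in morulae and 142 ± 6.59 CPM at L2C. At the low end Rplp0 had 2822 ± 407 CPM in morulae and 1294 ± 263 CPM at L2C and Rpl41 4374 ± 233 CPM in morulae and 2492 ± 170.0 CPM at L2C. Rpl36al (2.48 CPM in morulae, 10.7 at L2C) and Rpl24 (3.86 CPM in morulae, 7.81 at L2C), among those that were lower, were rare at both stages. Reads shared with processed pseudogenes were not counted.

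**Figure D3:**
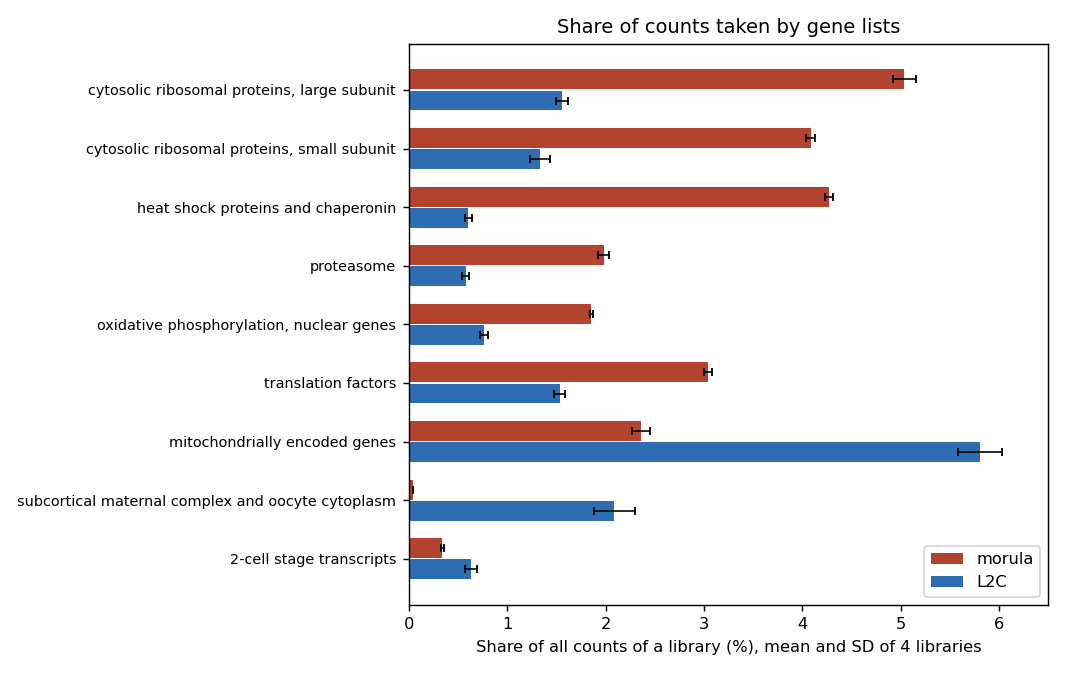
Share of all counts of a library taken by the members of 9 gene lists (mean and SD of 4 libraries; red morula, blue L2C). Large- and small-subunit ribosomal proteins reach 5.04% and 4.09% in morulae, against 1.56% and 1.33% at L2C, and heat shock proteins with the chaperonin 4.27%, against 0.605%, whereas mitochondrially encoded genes take 2.36%, against 5.81%.

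Factors that build ribosomes were divided. Of 85 genes of ribosome assembly and the nucleolus, 44 were higher, 24 lower and 17 not called with TMM, but 30 higher and 44 lower with total counts, so this list has no direction that holds under both scalings (median 0.23 and -0.30). Npm1 rose most (2.33 on the log2 scale, with 8107 ± 311 CPM in morulae and 1612 ± 134 CPM at L2C). Next came the 60S assembly factor Wdr12 (306 ± 17.1 CPM in morulae and 82.96 ± 7.97 CPM at L2C, adjusted p = 1.77e-13, log2 fold change 1.88). Ncl, which encodes nucleolin, had 1428 ± 74.8 CPM in morulae and 478 ± 29.3 CPM at L2C (adjusted p = 1.42e-13, log2 fold change 1.58). Polr1e, a subunit of RNA polymerase I, was lower (62.8 ± 7.12 CPM in morulae and 245 ± 16.4 CPM at L2C, adjusted p = 3.94e-13, log2 fold change -1.96). So were Imp3 of the small-subunit processome (121 CPM in morulae, 354 at L2C) and Rrp9 (65.5 CPM in morulae, 159 at L2C). Both genes knocked out elsewhere in the series were lower in wild-type morulae. Zfp622, whose yeast homologue acts on the large subunit, had 62.8 ± 5.85 CPM in morulae and 163 ± 8.82 CPM at L2C (adjusted p = 3.07e-11, log2 fold change -1.38). Ttf1, the termination factor of RNA polymerase I, had 52.0 ± 1.84 CPM in morulae and 74.7 ± 4.64 CPM at L2C (adjusted p = 2.09e-05, log2 fold change -0.52).

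Of 46 translation factors 35 were higher and 7 lower (median 1.54). The elongation factor subunit Eef1g had 1443, 1427, 1400.3 and 1374 CPM in morulae, against 44.3, 46.0, 35.2 and 40.4 CPM at L2C (log2 fold change 5.09, SE 0.09, adjusted p = 1.29e-18). Eef1b2 had 713 ± 22.1 CPM in morulae and 45.2 ± 3.85 CPM at L2C. The eIF3 subunits Eif3d (321 CPM in morulae, 22.8 at L2C) and Eif3l (615 CPM in morulae, 64.4 at L2C) rose more than Eif3a (802 CPM in morulae, 422 at L2C) and Eif3c (464 CPM in morulae, 248 at L2C). Eif4e, which binds the mRNA cap, was lower by a small margin (1615 ± 139 CPM in morulae and 1961 ± 112 CPM at L2C, log2 fold change -0.28). Its inhibitor Eif4ebp1 was higher (429 ± 28.2 CPM in morulae and 34.8 ± 7.86 CPM at L2C, adjusted p = 2.29e-13, log2 fold change 3.62). A related inhibitor, Eif4ebp2, was lower (9.46 ± 1.79 CPM in morulae and 28.4 ± 1.24 CPM at L2C). Splicing and export factors were higher in 35 of 47 cases, 22 with total counts. Eftud2 of the U5 particle (114 CPM in morulae, 8.80 at L2C), the export helicase Ddx39b (236 CPM in morulae, 25.0 at L2C), Srsf3 (1197 CPM in morulae, 136 at L2C) and Snrpb (696 CPM in morulae, 105.7 at L2C) rose most.

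Every one of the 37 tested genes of the proteasome and its assembly chaperones was higher, under both scalings, with a median log2 fold change of 2.30. They took 1.98% ± 0.0532 of all counts in morulae and 0.581% ± 0.0342 at L2C. Psma7, a subunit of the outer ring, had 997, 1067, 1107 and 1060.1 CPM in morulae, against 50.5, 51.1, 35.4 and 44.3 CPM at L2C (log2 fold change 4.54, SE 0.11, adjusted p = 6.3e-17). The assembly chaperone Psmg2 had 235 ± 9.08 CPM in morulae and 8.44 ± 1.48 CPM at L2C (adjusted p = 4.99e-17, log2 fold change 4.80). Even the gene that moved least, the catalytic-core subunit Psmb1, had 823 ± 13.3 CPM in morulae and 387 ± 28.2 CPM at L2C (log2 fold change 1.09). For the core subunit Psma5 the levels were 828 ± 40.7 CPM in morulae and 73.3 ± 7.42 CPM at L2C (adjusted p = 5.22e-17, log2 fold change 3.50).

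Chaperones rose strongly. Of 27 heat shock proteins and chaperonin subunits 22 were higher and 5 lower, and the list took 4.27% ± 0.0429 of all counts in morulae and 0.605% ± 0.0365 at L2C. The chaperonin TRiC, which folds actin and tubulin, rose in all 8 subunits listed, from Tcp1 (979 CPM in morulae, 360.4 at L2C) to Cct7 (1461 CPM in morulae, 114 at L2C, adjusted p = 1.04e-17, log2 fold change 3.69). Hspa8 had the largest change of the list (log2 fold change 5.55, SE 0.10, adjusted p = 3.61e-18) and, per length, Hsp90aa1 stood at 7367 TPM in morulae and 637 TPM at L2C, against 5215 TPM in morulae and 162 TPM at L2C for Hspa8. Members that were lower included Hspa1a, Hspa1b and Hspb1, all known to be induced by heat, as Hsp90aa1 is too. Hspa1a had 0.4997 CPM in morulae, 3.73 at L2C, and Hspa1b 1.597 CPM in morulae, 4.55 at L2C. Levels of Hspa1a and Hspa1b rest on reads that map to a single place, since reads shared between near-identical copies were not counted. Hspb1 had 23.3 ± 4.51 CPM in morulae and 95.6 ± 28.9 CPM at L2C. Of the heat shock factors, Hsf1, a maternal factor of the mouse egg, was lower (17.9 ± 1.31 CPM in morulae and 57.5 ± 5.12 CPM at L2C, adjusted p = 5.2e-11, log2 fold change -1.68). Hsf2 was higher (109.2 ± 8.08 CPM in morulae and 8.62 ± 2.35 CPM at L2C, adjusted p = 1.87e-13, log2 fold change 3.67).

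In the endoplasmic reticulum 20 of 30 genes were higher and 7 lower (16 and 12 with total counts). The sensors of the unfolded protein response split. Eif2ak3, which encodes PERK (5.75 CPM in morulae, 39.1 at L2C), and Ern1, which encodes IRE1 (8.55 CPM in morulae, 48.0 at L2C), were lower. Atf6 was higher (44.2 ± 2.69 CPM in morulae and 7.15 ± 0.434 CPM at L2C, adjusted p = 4.04e-13, log2 fold change 2.62). Xbp1, the transcription factor whose mRNA IRE1 splices, had 91.1, 67.6, 76.4 and 97.4 CPM in morulae, against 4.23, 4.58, 4.88 and 3.53 CPM at L2C (log2 fold change 4.27, SE 0.15, adjusted p = 5.55e-15). The chaperones Hspa5 (867 CPM in morulae, 370.2 at L2C) and Hsp90b1 (256 CPM in morulae, 61.2 at L2C) rose moderately, and the translocon-associated gene Ssr1 more (169 CPM in morulae, 27.8 at L2C).

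Lysosomal and autophagy genes were higher in 29 of 37 cases, 5 were lower and 3 not called (median 1.59). Grn, which encodes progranulin, had 651, 722, 813 and 678 CPM in morulae, against 6.03, 8.85, 4.20 and 4.48 CPM at L2C (log2 fold change 6.93, SE 0.20, adjusted p = 7.84e-12). Hexa, a subunit of beta-hexosaminidase, had 150.04 ± 13.2 CPM in morulae and 1.56 ± 0.599 CPM at L2C (adjusted p = 8.72e-17, log2 fold change 6.597). Ctsd (367 CPM in morulae, 6.66 at L2C), the membrane protein gene Lamp1 (774 CPM in morulae, 27.9 at L2C) and prosaposin, Psap (585 CPM in morulae, 53.1 at L2C), followed. Ctsb and Ctsl, which encode cathepsins B and L, were lower (197 ± 13.6 CPM in morulae and 465 ± 22.5 CPM at L2C for Ctsb and 666 ± 89.3 CPM in morulae and 1342 ± 57.8 CPM at L2C for Ctsl).

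Nuclear genes of oxidative phosphorylation and mitochondrially encoded genes moved apart. Of 77 nuclear genes 75 were higher and 2 lower (median 2.29). None of the 15 mitochondrially encoded genes was higher, 12 were lower and 3 were not called (median -0.697). These 15 are not all genes of oxidative phosphorylation, since genes for mitochondrial ribosomal RNA are among them. Ndufa3, an accessory subunit of complex I, had 154, 175, 181 and 179 CPM in morulae, against 3.37, 3.63, 2.93 and 3.67 CPM at L2C (log2 fold change 5.66, SE 0.12, adjusted p = 5.57e-18). Atp5d, a subunit of ATP synthase, had 292 ± 16.9 CPM in morulae and 18.8 ± 2.79 CPM at L2C (adjusted p = 1.53e-16, log2 fold change 3.96). From the mitochondrial genome mt-Co1, the core of complex IV, had 1691, 1674, 2087 and 2051 CPM in morulae, against 4889.9, 4798, 5584 and 5816 CPM at L2C (log2 fold change -1.49, SE 0.09, adjusted p = 2.33e-11). For mt-Cytb the levels were 5664 ± 299 CPM in morulae and 10999 ± 788 CPM at L2C, and for mt-Nd4 1934 ± 76.5 CPM in morulae and 3548 ± 249.96 CPM at L2C. The 2 nuclear genes that were lower were Ndufa2 (84.9 CPM in morulae, 174 at L2C) and Ndufb2 (13.6 CPM in morulae, 24.8 at L2C). Mitochondrial ribosomal proteins are nuclear genes that serve the same organelle, and 70 of 78 were higher (median 1.98). Mrps31 (129.5 CPM in morulae, 2.14 at L2C), Mrpl36 (211 CPM in morulae, 7.23 at L2C) and Mrpl11 (79.7 CPM in morulae, 2.87 at L2C, adjusted p = 3.44e-16, log2 fold change 4.79) led them.

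Glucose uptake and glycolysis had no common direction: 11 of 25 genes were higher and 12 lower. The glucose transporter Slc2a3 (GLUT3) had 239.5 ± 32.0 CPM in morulae and 17.8 ± 2.57 CPM at L2C (adjusted p = 4.35e-15, log2 fold change 3.75). Slc2a1 (GLUT1, 56.7 ± 3.92 CPM in morulae and 4.63 ± 1.24 CPM at L2C) and the hexokinases Hk1 (15.5 CPM in morulae, 1.79 at L2C) and Hk2 (42.8 CPM in morulae, 3.30 at L2C) were higher too. So were Aldoa (397 CPM in morulae, 32.7 at L2C) and Pgam1 (311 CPM in morulae, 46.5 at L2C). Pdha1, the pyruvate dehydrogenase subunit that opens the way into the citric acid cycle, had 643 ± 53.6 CPM in morulae and 81.8 ± 3.97 CPM at L2C (adjusted p = 2e-16, log2 fold change 2.97). All 3 phosphofructokinase genes were lower but low throughout, Pfkl with 3.24 CPM in morulae, 9.97 at L2C, Pfkp with 1.47 CPM in morulae, 5.29 at L2C and Pfkm with 0.378 CPM in morulae, 2.10 at L2C. Ldhb, the lactate dehydrogenase form of the oocyte, had 2.71, 2.81, 2.86 and 2.04 CPM in morulae, against 186, 203, 206 and 312 CPM at L2C (log2 fold change -6.44, SE 0.20, adjusted p = 5.12e-13). Ldha was not called (21.1 ± 8.95 CPM in morulae and 19.6 ± 3.62 CPM at L2C). Pdk1, which inhibits pyruvate dehydrogenase, was lower (0.350 CPM in morulae, 25.6 at L2C), as was Pcx, pyruvate carboxylase (0.850 CPM in morulae, 10.8 at L2C).

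Of 18 amino acid transporters 9 were higher and 7 lower. Slc38a4 (52.2 CPM in morulae, 1.33 at L2C), Slc1a1 (251 CPM in morulae, 48.5 at L2C) and Slc3a2, the heavy chain of several exchangers (406 CPM in morulae, 95.5 at L2C), were higher. Slc7a6 had 157 ± 13.6 CPM in morulae and 11.8 ± 1.84 CPM at L2C (adjusted p = 1.22e-15, log2 fold change 3.74). The glycine transporter Slc6a9, used by the egg to regulate its volume, was lower (0.206 CPM in morulae, 7.14 at L2C). The cystine transporter Slc7a11 had 0.335 ± 0.213 CPM in morulae and 30.1 ± 4.09 CPM at L2C (adjusted p = 4.86e-14, log2 fold change -6.41). Sterol genes had 11 of 23 members higher and 8 lower with TMM and 7 and 8 with total counts. Msmo1 (243 CPM in morulae, 22.8 at L2C) and Mvd (18.7 CPM in morulae, 2.0001 at L2C) were higher, and Sqle (51.7 CPM in morulae, 138 at L2C) and Insig1 (48.1 CPM in morulae, 137 at L2C) lower.

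Of 28 redox genes 20 were higher and 7 lower (median 1.63). Thioredoxin, Txn1, had 352, 419, 394 and 327 CPM in morulae, against 10.5, 14.7, 10.7 and 12.2 CPM at L2C (log2 fold change 4.96, SE 0.12, adjusted p = 6.28e-17). The mitochondrial peroxiredoxin Prdx3 had 351 ± 11.3 CPM in morulae and 36.1 ± 6.25 CPM at L2C. Prdx2 was lower (129 ± 7.05 CPM in morulae and 759 ± 94.98 CPM at L2C, adjusted p = 6.05e-15, log2 fold change -2.55). Of p53 and its targets 12 of 26 were higher and 8 lower (11 and 13 with total counts). Perp, a junction protein as well as a p53 target, had 147, 198, 191 and 143 CPM in morulae, against 0.359, 0.632, 0.676 and 0.611 CPM at L2C (adjusted p = 2.37e-17). Bax was higher (66.5 CPM in morulae, 9.34 at L2C). Rrm2b (5.21 CPM in morulae, 202 at L2C), Sesn2 (8.55 CPM in morulae, 84.0 at L2C) and Gadd45a (1.18 CPM in morulae, 35.7 at L2C) were lower. Cdkn1a, the p21 cell cycle inhibitor, was not called (62.0 ± 11.2 CPM in morulae and 60.8 ± 9.14 CPM at L2C). Trp53 itself was higher (159.6 ± 8.41 CPM in morulae and 48.2 ± 9.16 CPM at L2C, adjusted p = 5.84e-11, log2 fold change 1.73).

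Of 46 replication genes 30 were higher and 8 lower. Tyms, thymidylate synthase, had 525, 537, 507 and 489 CPM in morulae, against 34.7, 33.9, 26.8 and 27.0 CPM at L2C (log2 fold change 4.07, SE 0.10, adjusted p = 5.03e-17). Thymidine kinase, Tk1, had 242 ± 25.9 CPM in morulae and 29.1 ± 4.05 CPM at L2C (adjusted p = 8.61e-15, log2 fold change 3.06). Ribonucleotide reductase rose in both listed subunits, Rrm1 (371 CPM in morulae, 61.9 at L2C) and Rrm2 (1424 CPM in morulae, 315 at L2C). In the replicative helicase Mcm5 (153 CPM in morulae, 32.8 at L2C) and Mcm7 (178 CPM in morulae, 52.5 at L2C) were higher. Of its loading and activating factors Cdc45 (142 CPM in morulae, 367 at L2C) and Orc1 (48.8 CPM in morulae, 97.1 at L2C) were lower and Cdc6 was higher (277 CPM in morulae, 88.7 at L2C). The licensing inhibitor Gmnn was lower (395 CPM in morulae, 792 at L2C). Pcna was not called (318 ± 19.7 CPM in morulae and 349 ± 18.3 CPM at L2C).

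Mitosis genes were divided evenly with TMM, 23 higher and 23 lower of 54 (11 and 34 with total counts). Mki67, a coat of mitotic chromosomes, had 27.4, 30.0, 31.8 and 24.5 CPM in morulae, against 228, 238, 264 and 221 CPM at L2C (log2 fold change -3.06, SE 0.10, adjusted p = 1.79e-15). Cenpf (53.4 CPM in morulae, 228 at L2C), Spc25 (69.2 CPM in morulae, 279 at L2C) and Cdc25c (44.9 CPM in morulae, 191 at L2C) were lower too. Spc24, the partner of Spc25 in the NDC80 complex, was higher (86.7 ± 8.16 CPM in morulae and 11.8 ± 2.39 CPM at L2C, adjusted p = 3.23e-13, log2 fold change 2.87). So were Ccnb2 (146 CPM in morulae, 38.9 at L2C), Bub1b (68.4 CPM in morulae, 22.4 at L2C) and Aurka (784 CPM in morulae, 325 at L2C). Ccnb1, the main mitotic cyclin, was not called (2041 ± 121 CPM in morulae and 1850.5 ± 137 CPM at L2C).

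Of 30 regulators of the G1 phase 16 were lower and 6 higher, against 46.9% lower and 39.9% higher over all genes tested. Rb1, the retinoblastoma protein gene, had 0.739, 0.414, 1.02 and 0.453 CPM in morulae, against 88.3, 104.1, 94.7 and 122 CPM at L2C (log2 fold change -7.24, SE 0.20, adjusted p = 1.89e-16). The E2F genes E2f5 (3.92 CPM in morulae, 171 at L2C) and E2f1 (3.68 CPM in morulae, 58.3 at L2C) were lower. Cdk4 was higher (261 ± 20.96 CPM in morulae and 31.1 ± 6.88 CPM at L2C, adjusted p = 2.18e-12, log2 fold change 3.07). Its partner Ccnd3 had 128 ± 28.7 CPM in morulae and 14.3 ± 0.854 CPM at L2C (adjusted p = 1.25e-12, log2 fold change 3.17). Ccnd1 was lower (4.81 CPM in morulae, 7.92 at L2C) and Ccnd2 not called (0.791 CPM in morulae, 0.833 at L2C). Myc rose (33.8 ± 7.42 CPM in morulae and 10.2 ± 1.63 CPM at L2C, adjusted p = 1.6e-08, log2 fold change 1.73), and its antagonist Mxd1 fell (2.72 CPM in morulae, 34.2 at L2C).

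The oocyte linker histone fell and most somatic ones named here rose. H1foo had 0.903, 0.662, 0.408 and 0.378 CPM in morulae, against 40.5, 54.0, 60.7 and 58.3 CPM at L2C (log2 fold change -6.51, SE 0.23, adjusted p = 4.82e-15). Hist1h1e (14.97 CPM in morulae, 0.179 at L2C), Hist1h1d (16.2 CPM in morulae, 0.730 at L2C) and Hist1h1c (25.7 CPM in morulae, 2.75 at L2C) were higher. Hist1h1b had 58.01 ± 6.47 CPM in morulae and 7.69 ± 1.08 CPM at L2C (adjusted p = 2.9e-13, log2 fold change 2.92), and Hist1h1a was lower (7.56 CPM in morulae, 17.3 at L2C). Libraries were primed on poly(A) tails, which most replication-dependent histone mRNAs lack, so their levels are those of the tailed or captured part. Of variants, macroH2A1, H2afy, had 34.9 ± 2.54 CPM in morulae and 0.697 ± 0.422 CPM at L2C (adjusted p = 1.03e-13, log2 fold change 5.60). H2afx had 84.7 CPM in morulae, 18.5 at L2C, while H3f3b was among the genes that changed least. Over the list, 10 of 25 were higher and 9 lower (9 and 15 with total counts).

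Enzymes of DNA methylation and demethylation changed in both directions. Tet3, which oxidises methylcytosine in the zygote, had 3.12, 3.56, 2.65 and 4.15 CPM in morulae, against 113, 113, 129.5 and 136 CPM at L2C (log2 fold change -5.19, SE 0.14, adjusted p = 1.4e-16), and Tet2 255, 274, 237 and 242 CPM in morulae, against 7.68, 11.7, 9.53 and 7.95 CPM at L2C (log2 fold change 4.78, SE 0.12, adjusted p = 9.34e-17). Tet1 was lower by a small margin (75.5 CPM in morulae, 93.9 at L2C). Dnmt1 (14.8 CPM in morulae, 36.7 at L2C) and Dnmt3a (32.9 CPM in morulae, 67.8 at L2C) were lower. Dnmt3b had 35.8 ± 2.72 CPM in morulae and 6.86 ± 0.877 CPM at L2C (adjusted p = 7.86e-12, log2 fold change 2.39), and the cofactor Dnmt3l was higher (75.2 CPM in morulae, 22.0 at L2C, adjusted p = 2.83e-12, log2 fold change 1.78). Zfp57, which protects imprints, was lower (14.9 ± 1.51 CPM in morulae and 164 ± 25.9 CPM at L2C, adjusted p = 5.76e-15, log2 fold change -3.45). Tdg, the glycosylase that removes oxidised methylcytosine, had no count at L2C and 3.55 CPM in morulae, at least 64.6-fold higher. In all 10 of 25 members were higher and 12 lower (6 and 15 with total counts).

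Among Polycomb genes and histone modifiers 21 of 39 were lower and 13 higher, against 46.9% lower and 39.9% higher over all genes tested. Bmi1 of Polycomb complex 1 had 33.3, 36.5, 27.4 and 23.6 CPM in morulae, against 638, 717, 698 and 769.6 CPM at L2C (log2 fold change -4.55, SE 0.12, adjusted p = 1.43e-15). Cbx2, a reader in that complex, had 0.953 ± 0.273 CPM in morulae and 51.8 ± 2.42 CPM at L2C (adjusted p = 8.63e-16, log2 fold change -5.75). Of complex 2, Suz12 was lower (254 CPM in morulae, 546 at L2C) and Eed (294 CPM in morulae, 88.3 at L2C) and Jarid2 (344 ± 16.9 CPM in morulae and 52.6 ± 5.08 CPM at L2C, adjusted p = 1.4e-15, log2 fold change 2.71) higher. The acetyltransferases Ep300 (21.7 CPM in morulae, 167 at L2C) and Crebbp (117 CPM in morulae, 241 at L2C) were lower and Kat5 was higher (15.98 CPM in morulae, 7.05 at L2C). The deacetylases Hdac1 (644 CPM in morulae, 221 at L2C), Hdac2 (246 CPM in morulae, 50.6 at L2C) and Hdac3 (28.4 CPM in morulae, 0.614 at L2C) were higher. Kdm5b, a histone H3 demethylase, was lower (173 ± 21.3 CPM in morulae and 433 ± 12.7 CPM at L2C, adjusted p = 3.44e-11, log2 fold change -1.32).

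Of imprinted genes 12 of 21 tested were higher and 5 lower. Snrpn (205 CPM in morulae, 44.2 at L2C) and Sfmbt2 (18.4 CPM in morulae, 2.78 at L2C) were higher, with Slc38a4. Gab1 had 64.5 ± 2.82 CPM in morulae and 11.1 ± 2.997 CPM at L2C (adjusted p = 1.15e-11, log2 fold change 2.54). Mest was lower (2.38 ± 0.605 CPM in morulae and 21.9 ± 2.44 CPM at L2C, adjusted p = 1.46e-11, log2 fold change -3.21), as were Plagl1 (0.677 CPM in morulae, 5.45 at L2C) and Cdkn1c (1.02 CPM in morulae, 9.54 at L2C). Xist, the noncoding RNA that coats the inactive X chromosome, had 291, 135, 176 and 365 CPM in morulae, against 2.73, 3.87, 4.80 and 1.49 CPM at L2C (log2 fold change 6.24, SE 0.51, adjusted p = 1.56e-05). Morula pools spread widely around their mean without overlap with L2C, and the sex of the embryos is not stated. H19 and Igf2 did not pass the filter on low counts.

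Factors of pluripotency were higher in 24 of 33 cases, 5 were lower and 4 not called (18 higher and 11 lower with total counts). After Nanog the largest change was that of Tfcp2l1, with 667, 599, 566 and 648 CPM in morulae, against 3.87, 4.03, 3.60 and 5.71 CPM at L2C (log2 fold change 7.16, SE 0.13, adjusted p = 1.29e-18). The Nodal coreceptor Tdgf1 had 169 ± 15.2 CPM in morulae and 1.93 ± 1.28 CPM at L2C (adjusted p = 3.23e-07, log2 fold change 6.47), and Otx2 25.8 CPM in morulae, 0.321 at L2C. Pou5f1, which encodes OCT4, had 117, 134, 128 and 133 CPM in morulae, against 14.8, 10.03, 12.5 and 13.4 CPM at L2C (log2 fold change 3.33, SE 0.11, adjusted p = 4.64e-15). Zfp42, which encodes REX1, had 344 ± 16.8 CPM in morulae and 34.5 ± 1.93 CPM at L2C. Sox2 stayed low, with 2.86 ± 0.838 CPM in morulae and 1.38 ± 0.534 CPM at L2C, and its call was lost with total counts. Klf genes were not alike. Klf5 rose (359 ± 43.7 CPM in morulae and 65.3 ± 11.9 CPM at L2C, adjusted p = 8.09e-12, log2 fold change 2.46), as did Klf2 (16.8 CPM in morulae, 8.16 at L2C). Klf4 was lower (31.8 ± 2.28 CPM in morulae and 42.7 ± 4.17 CPM at L2C, adjusted p = 0.00133, log2 fold change -0.42). Fgf4, the ligand that inner cells send, was also lower (12.6 ± 1.70 CPM in morulae and 59.7 ± 3.71 CPM at L2C, adjusted p = 2.44e-12, log2 fold change -2.24), as was Il6st, the receptor chain gp130 (0.579 CPM in morulae, 25.1 at L2C).

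Trophectoderm genes had the highest median of the lists, 3.27, with 23 of 30 higher and 5 lower under both scalings. Cdx2, the caudal homeobox factor of this lineage, was still low (7.88, 8.602, 8.30 and 8.84 CPM in morulae, against 0, 0.158, 0 and 0.0679 CPM at L2C), and its stages did not overlap. Gata3 had 75.1, 81.1, 81.8 and 79.6 CPM in morulae, against 3.44, 5.29, 5.48 and 5.57 CPM at L2C (log2 fold change 4.003, SE 0.14, adjusted p = 4.32e-15). Keratin 8, Krt8, had 166, 203, 165 and 181 CPM in morulae, against 0.861, 0.395, 0.976 and 1.02 CPM at L2C (log2 fold change 7.75, SE 0.16, adjusted p = 9.08e-18). Krt18 had 135 ± 15.9 CPM in morulae and 1.82 ± 0.656 CPM at L2C (adjusted p = 7.29e-16, log2 fold change 6.199). The fatty acid binding protein gene Fabp3 (208 CPM in morulae, 0.652 at L2C) and Ly6a (761 CPM in morulae, 1.01 at L2C) also rose. Lrp2, which encodes the endocytic receptor megalin, had 133 ± 6.80 CPM in morulae and 1.19 ± 0.574 CPM at L2C (adjusted p = 2.06e-16, log2 fold change 6.81). Its adaptor Dab2 had 287 ± 27.9 CPM in morulae and 23.8 ± 2.10 CPM at L2C (adjusted p = 2.38e-16, log2 fold change 3.59). Tead4 (98.7 CPM in morulae, 33.9 at L2C), Tfap2c (118 CPM in morulae, 60.8 at L2C), Eomes (5.11 CPM in morulae, 0.718 at L2C) and Hand1 (70.3 CPM in morulae, 8.68 at L2C) were higher too, whereas Elf5 and Krt7 did not pass the filter. Gata2 had 2 counts in all morula libraries (0.0394 CPM in morulae, 2.12 at L2C) and was lower.

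**Figure D4:**
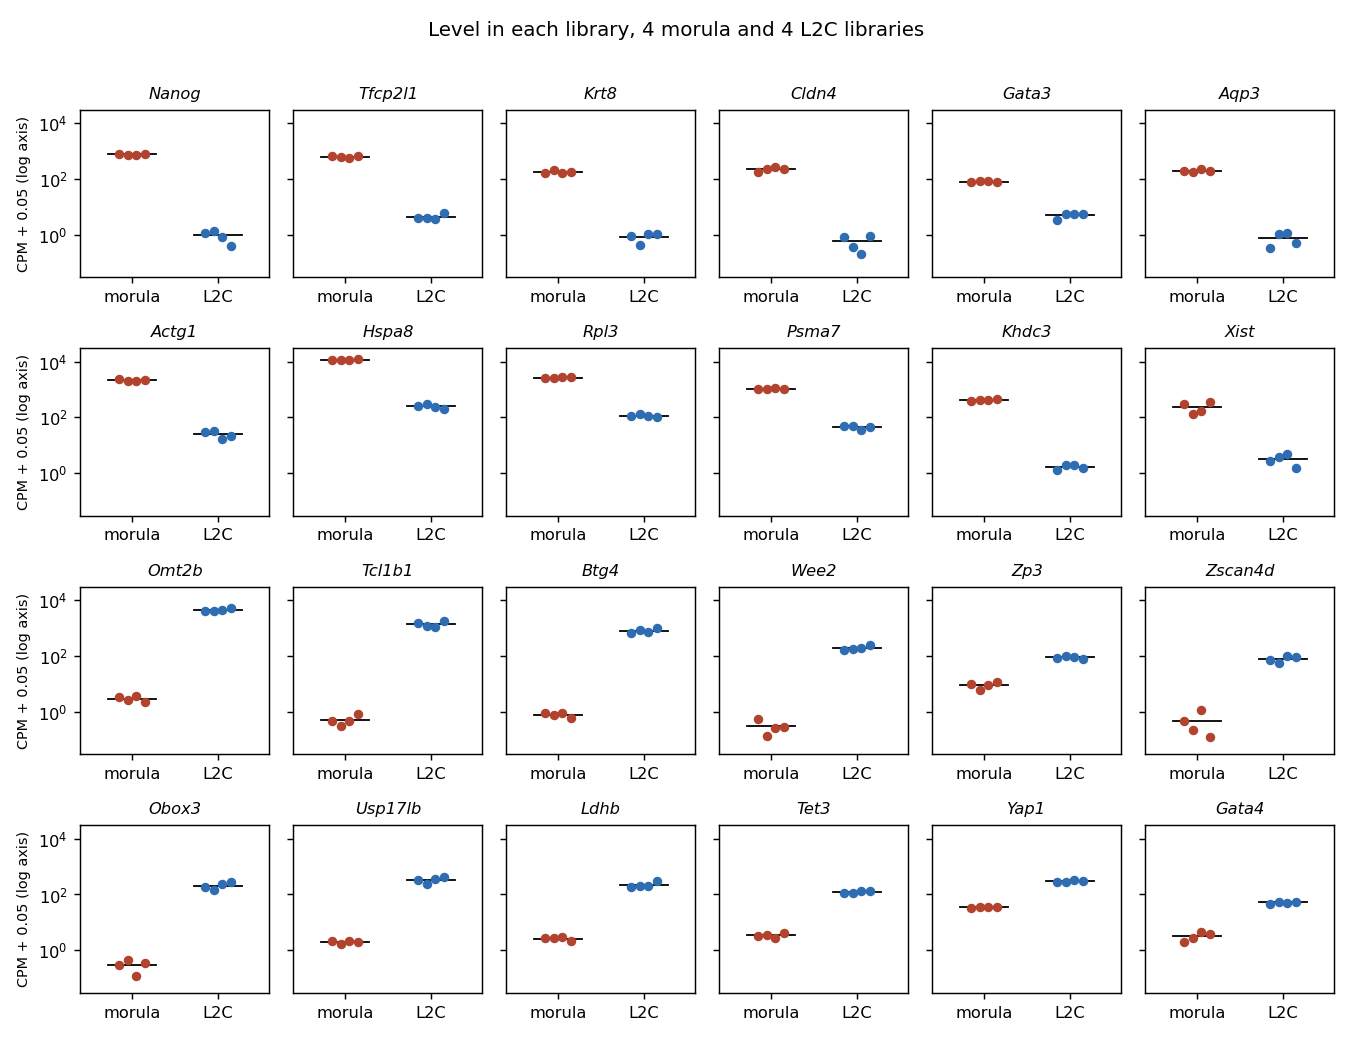
Level of 24 genes in each of the 4 morula libraries (red, left) and 4 L2C libraries (blue, right), as CPM plus 0.05 on a log axis, with bars at the mean. Genes of the upper 2 rows are higher and those of the lower 2 rows lower in every morula library than in every L2C library. The spread within a stage is widest where levels are near or under 1 CPM, as for Zscan4d in morulae and Cldn4 at L2C.

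Of the listed primitive endoderm genes 11 of 17 were higher and 2 lower (9 and 3 with total counts), and 7, among them Sox17, were not tested. Together the listed genes took 0.0204% ± 0.00202 of counts in morulae and 0.0134% ± 0.000534 at L2C. That list does not hold Dab2, which is named with the trophectoderm genes above. Gata6 had 117, 102, 99.1 and 105.1 CPM in morulae, against 4.95, 6.40, 2.03 and 2.51 CPM at L2C (log2 fold change 4.75, SE 0.27, adjusted p = 1.67e-08). Gata4 fell, with 1.89, 2.73, 4.56 and 3.85 CPM in morulae, against 46.1, 54.5, 49.9 and 56.0 CPM at L2C (log2 fold change -3.96, SE 0.19, adjusted p = 7.76e-13). Pdgfra, the growth factor receptor that marks this lineage, had 6.56 ± 1.97 CPM in morulae and 0.764 ± 0.163 CPM at L2C (adjusted p = 1.66e-08, log2 fold change 3.08). The collagens Col4a1 (7.75 CPM in morulae, 0.381 at L2C) and Col4a2 (6.90 CPM in morulae, 0.382 at L2C) were higher together. They lie head to head and share a promoter region.

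The Hippo pathway changed in composition: 11 of 26 genes were higher and 11 lower with TMM, 9 and 14 with total counts. Yap1 itself had 33.3, 36.0, 35.6 and 36.0 CPM in morulae, against 285, 280.4, 322 and 299 CPM at L2C (log2 fold change -3.07, SE 0.08, adjusted p = 1.69e-16). Its paralogue Wwtr1, which encodes TAZ, was higher (81.9 ± 6.02 CPM in morulae and 32.9 ± 6.15 CPM at L2C, adjusted p = 6.22e-09, log2 fold change 1.32). Per length, Yap1 stood at 7.30 TPM in morulae and 89.0 TPM at L2C, and Wwtr1 at 32.9 TPM in morulae and 19.2 TPM at L2C, so that the order of the pair differed between the stages. Upstream, Nf2 (41.3 CPM in morulae, 108.2 at L2C) and the kinase Lats1 (9.46 CPM in morulae, 13.7 at L2C) were lower and Lats2 higher (14.4 ± 0.795 CPM in morulae and 0.737 ± 0.251 CPM at L2C, adjusted p = 4.96e-12, log2 fold change 4.28). Amot, which holds YAP1 at the junctions of inner cells, was higher (43.2 ± 4.63 CPM in morulae and 5.23 ± 1.15 CPM at L2C, adjusted p = 1.93e-12, log2 fold change 3.04). Amotl2 had 18.5 ± 1.75 CPM in morulae and 0.254 ± 0.190 CPM at L2C (adjusted p = 5.3e-13, log2 fold change 6.12). Ccn1 and Ccn2, targets of YAP1 and TEAD known from cultured cells, were higher (16.5 CPM in morulae, 0.699 at L2C for Ccn1; 9.82 CPM in morulae, 0.211 at L2C for Ccn2), as was Tead4.

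Of 34 junction genes 23 were higher and 9 lower. Cdh1, which encodes the E-cadherin of compaction, had 145, 148, 143 and 137 CPM in morulae, against 27.2, 23.2, 29.3 and 32.7 CPM at L2C (log2 fold change 2.35, SE 0.10, adjusted p = 1.21e-13). Its catenin partner Ctnna1 had 244 ± 8.66 CPM in morulae and 53.8 ± 3.68 CPM at L2C (adjusted p = 1.15e-14, log2 fold change 2.18). Ctnnb1 rose less (182 CPM in morulae, 88.0 at L2C). Of the 4 tested claudins of tight junctions, Cldn4 and Cldn7 were higher and Cldn3 and Cldn6 lower. Cldn4 had 180.2, 233, 264 and 225 CPM in morulae, against 0.789, 0.316, 0.150 and 0.883 CPM at L2C (log2 fold change 8.66, SE 0.24, adjusted p = 6.2e-14), and Cldn7 354 CPM in morulae, 4.78 at L2C. Ocln, which encodes occludin, had 80.97 ± 6.53 CPM in morulae and 12.7 ± 0.681 CPM at L2C (adjusted p = 3.18e-14, log2 fold change 2.68). Cldn6 had 23.0 CPM in morulae, 79.3 at L2C. Tjp1, ZO-1, was higher by 0.42 with TMM and not called with total counts. Of gap junction genes, Gja1, connexin 43, was higher (2191 ± 20.1 CPM in morulae and 77.4 ± 18.2 CPM at L2C, adjusted p = 1.48e-11, log2 fold change 4.82), as was Gjb5 (18.9 CPM in morulae, 0.0574 at L2C). Of desmosome genes, Dsp (12.6 CPM in morulae, 1.25 at L2C) and Pkp2 (17.7 CPM in morulae, 0.815 at L2C) were higher, as was Dsg2, with no count at L2C and 5.40 CPM in morulae, at least 98.3-fold higher. The nectin gene Nectin3 (1.74 CPM in morulae, 26.3 at L2C) and Afdn (25.6 CPM in morulae, 77.7 at L2C) were lower.

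Of 44 genes of polarity, actin and compaction 23 were higher and 16 lower with TMM, 20 and 20 with total counts. The actin genes themselves rose. Actg1 had 2308, 2066, 2026 and 2155 CPM in morulae, against 30.1, 32.8, 17.4 and 22.3 CPM at L2C (log2 fold change 6.38, SE 0.19, adjusted p = 1.57e-10). Actb had 3480.5, 2910.0, 3282 and 3181 CPM in morulae, against 164, 155, 129 and 143 CPM at L2C (log2 fold change 4.44, SE 0.09, adjusted p = 4.88e-18). With them rose the tropomyosins Tpm4 (277 ± 18.4 CPM in morulae and 3.21 ± 1.21 CPM at L2C, adjusted p = 4.08e-15, log2 fold change 6.42) and Tpm1 (127 CPM in morulae, 4.98 at L2C). Profilin, Pfn1, was higher (438 CPM in morulae, 63.6 at L2C). Ezrin, Ezr, a protein of the apical domain, had 21.3 ± 3.72 CPM in morulae and 3.59 ± 1.12 CPM at L2C (adjusted p = 9.67e-10, log2 fold change 2.56). Polarity genes were divided. Pard3 was lower (20.4 ± 3.18 CPM in morulae and 132 ± 3.28 CPM at L2C, adjusted p = 4.36e-14, log2 fold change -2.69). Mark2 had 13.5 ± 0.398 CPM in morulae and 115 ± 9.46 CPM at L2C (adjusted p = 2.1e-15, log2 fold change -3.09). Llgl2 (6.86 CPM in morulae, 48.0 at L2C) and Mpp5 (15.6 CPM in morulae, 71.3 at L2C) were lower too. Of atypical protein kinase C genes Prkcz was higher (60.0 CPM in morulae, 16.5 at L2C) and Prkci lower (32.3 CPM in morulae, 46.1 at L2C), and their partner Pard6b was higher (39.5 CPM in morulae, 16.3 at L2C). The kinase gene Rock1 was lower (72.9 ± 6.55 CPM in morulae and 726 ± 62.3 CPM at L2C, adjusted p = 1.89e-16, log2 fold change -3.32).

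Transport genes that later fill the blastocyst cavity were 8 of 15 higher and 6 lower. Aqp3 had 189, 169, 216 and 187 CPM in morulae, against 0.287, 1.03, 1.13 and 0.475 CPM at L2C (log2 fold change 8.04, SE 0.20, adjusted p = 2.14e-16). Aqp9, another aquaglyceroporin, had 216 ± 3.53 CPM in morulae and 87.8 ± 10.8 CPM at L2C. Aqp11 was lower (2.91 ± 0.605 CPM in morulae and 47.8 ± 6.04 CPM at L2C, adjusted p = 5.25e-14, log2 fold change -4.03). Of the beta subunits of the sodium pump, Atp1b1 was higher (25.2 CPM in morulae, 12.8 at L2C) and Atp1b3 lower (256 CPM in morulae, 361 at L2C). The regulator Fxyd4 had 21.8 ± 4.24 CPM in morulae and 1.66 ± 0.450 CPM at L2C (adjusted p = 1.04e-11, log2 fold change 3.71).

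Signalling ligands and receptors were lower in 21 of 39 cases and higher in 13, against 46.9% lower and 39.9% higher over all genes tested. The receptor Kit had 0.977 ± 0.392 CPM in morulae and 81.9 ± 5.29 CPM at L2C (adjusted p = 2.47e-16, log2 fold change -6.40). The feedback inhibitor Spry4 had 3.05 ± 1.18 CPM in morulae and 185 ± 14.6 CPM at L2C (adjusted p = 2.16e-15, log2 fold change -5.91). The Notch ligand Jag1 (1.19 CPM in morulae, 26.8 at L2C), Egfr (0.154 CPM in morulae, 13.1 at L2C) and Fzd7 (0.342 CPM in morulae, 29.3 at L2C) were lower too. Receptors for FGF changed by member. Fgfr2 was higher (46.8 ± 7.604 CPM in morulae and 4.94 ± 0.954 CPM at L2C, adjusted p = 9.92e-13, log2 fold change 3.24), as was Fgfr3 (11.96 CPM in morulae, 0.949 at L2C). Fgfr4 was lower (2.41 CPM in morulae, 4.59 at L2C) and Fgfr1 not called (9.71 CPM in morulae, 8.09 at L2C). Pdgfa, the ligand of Pdgfra, rose (42.9 ± 2.11 CPM in morulae and 8.35 ± 2.36 CPM at L2C, adjusted p = 1.19e-10, log2 fold change 2.36), as did Erbb2 (5.35 CPM in morulae, 0.150 at L2C) and Wnt7b (4.25 CPM in morulae, 0.237 at L2C). Wnt3a had no count at L2C and 2.17 CPM in morulae, at least 39.4-fold higher.

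**Figure D5:**
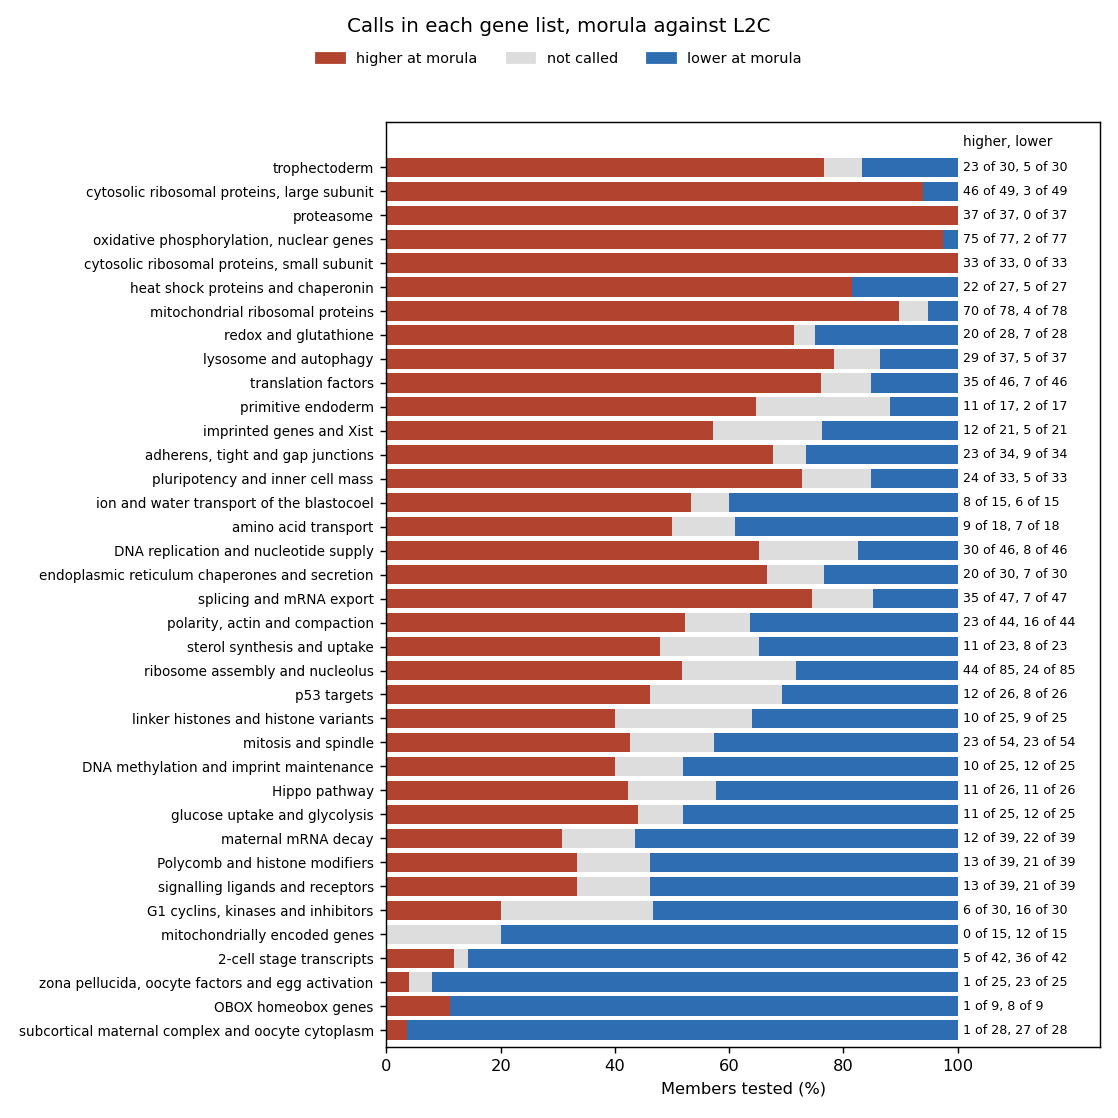
Share of the tested members of 37 gene lists that were called higher (red), not called (grey) and called lower (blue) in morulae than at L2C, with the lists ordered by median log2 fold change and the counts of higher and lower members at the right. Over all genes tested 39.9% were higher and 46.9% lower; lists range from trophectoderm and the ribosome at the top to the oocyte lists at the bottom.

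A few well-expressed genes stayed in place. Of genes with at least 100 CPM at both stages, the 8 whose 95% interval lay closest around 0 were H3f3b, a histone H3.3 gene, Pafah1b1, Amd1, Imp4, Nrf1, Rnf114, Dimt1 and Fxr1. H3f3b had 1941, 1826, 1820.0 and 1806 CPM in morulae, against 1654, 1868, 1806 and 1965 CPM at L2C, a log2 fold change of 0.02. Pafah1b1, a regulator of dynein, had 118, 115, 119 and 115 CPM in morulae, against 108.6, 116, 124 and 119.6 CPM at L2C. Libraries of both stages overlapped in both genes. Their stability is relative to the scaling: with total counts alone all 8 were lower, H3f3b by -0.52 and Pafah1b1 by -0.54 on the log2 scale.

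The change was largely the same in embryos that lacked Zfp622 or Ttf1, in libraries that the wild-type comparison did not use. The targeted genes went with the labels. Scaled to total counts, Zfp622 had 6.07 to 20.5 CPM in Zfp622 knockout morulae, against 47.5 to 58.9 CPM in wild-type morulae, and 53.04 to 103.7 CPM in Zfp622 knockout L2C, against 187 to 201 CPM in wild-type L2C. On the same scale Ttf1 had 22.95 to 26.4 CPM in Ttf1 knockout morulae, against 41.1 to 45.5 CPM in wild-type morulae, and 27.5 to 39.8 CPM in Ttf1 knockout L2C, against 82.2 to 96.0 CPM in wild-type L2C. Transcripts of both genes were reduced in the pools, not absent. Of 14327 genes called in wild type, 12401 (86.6%) were called the same way between stages in the Zfp622 knockout, 78 the opposite way and 1278 not at all, the rest not being tested there. In the Ttf1 knockout 12135 (84.7%) were called the same way, 154 the opposite way and 1501 not at all. Over all genes tested within each knockout, 13710 of 16420 were called in the Zfp622 knockout and 13641 of 16525 in the Ttf1 knockout. With most genes called there anyway, only the direction of the calls is read here. For the 7421 genes called at least 4-fold in wild type by their fitted fold change, 6843 and 6793 were called the same way, with 3 and 7 the opposite way. All 37 proteasome genes and all 28 called genes of the subcortical maternal complex list went the same way in both knockouts, Khdc3 included. Mitochondrially encoded genes did so less fully: of 12 lower in wild type, 7 were lower in the Zfp622 knockout and 6 in the Ttf1 knockout, with 1 higher there. All Ttf1 knockout libraries carry lane number 1 in the file headers and those of Zfp622 knockouts lane number 2, like wild type.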

How the data were processed

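RNA of pools of 10 embryos was primed on poly(A) tails, copied by template switching, amplified and made into unstranded paired libraries of 150 bp reads, per the labels' protocols. HISAT2 2.2.1 and featureCounts 2.0.1 are named in the submitters' processing notes. The deposited values are raw counts per gene against Ensembl release 99 (GRCm38), made without a strand or multi-mapping option, per the file headers, so reads placed at several positions, as in near-identical genes, were not counted and overlapping genes on opposite strands cannot be told apart.

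From those counts, edgeR 4.0.16 (R 4.3.3) was run on the 8 wild-type libraries with its default filter on low counts, TMM scaling, a robust quasi-likelihood fit and Benjamini-Hochberg adjustment over 16490 genes, with calls at an adjusted p of 0.05. DESeq2 1.42.0 and other settings were alternatives. In simulated data with 200 changed genes among 15342, built for this comparison, 46%, 76%, 98% and 96% of changes of 1.5-, 2-, 4- and 8-fold were recovered, with 10 calls among 15142 unchanged genes. Only a small part of the genes was changed there, whereas 86.9% of genes were called between the stages. Recovery and false calls with most genes changed were not tested. Library values were compared by exact permutation. Nothing in the labels says that libraries came from separate cultures or days, so p-values measure the spread between these pools. PCR copies were not removed by molecular tags.

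The comparison, the gene lists and the pairs were chosen with earlier results of these data known. Genes were named by rule: the 12 largest rises and falls among called genes without overlap between stages and at least 20 CPM at the higher one, the 10 largest gains and losses in CPM, up to 4 genes with the smallest p in each list, markers, and the 8 genes of at least 100 CPM with the interval closest around 0. Predicted genes, Rik clones, pseudogenes and unnamed genes were left out of these. Other list members named were picked for their role after their values were seen. A floor of 3 counts over a group bounds the fold of genes at 0. Coordinates are those of the files. Promoters come from RefSeq. A few genes that the rule names are not reported here.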

Additional observations from a re-analysis of the deposited data

Results flagged for a closer look

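In 12 of 168 groups of 4 libraries checked, 1 library stood apart from the other 3 by Dixon's criterion for a named gene or a marker of another cell type; chance alone flags about 1 in 20 groups. For 7 of these the level was that of a few reads. In morulae, Tcl1b4 had 0 CPM in morula 3, against 0.151 to 0.165 CPM in the other 3 libraries, Mfap2 had 0.068 CPM in morula 3 and Oosp2 0.0827 CPM in morula 2, against 0 in the others. At L2C, Serpinb9b and Rhox5 each had 0.0718 CPM in L2C 1, against 0 in the others, and Sycn had 0.474 CPM in L2C 2, against at most 0.0679 CPM. Tnfaip6, a cumulus marker, had 0.165 CPM in morula 2 and 0 in the other morula libraries.

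At higher levels, Mdm4 had 95 CPM in morula 1, against 75.4 to 77.3 CPM in the other morula libraries, and Gdf9 had 1.56 CPM in morula 3, against 0.739 to 0.755 CPM. At L2C, Alppl2 had 1122 CPM in L2C 3, against 1062 to 1070 CPM, Gata3 had 3.44 CPM in L2C 1, against 5.29 to 5.57 CPM, and Star, a steroidogenic gene, had 0.948 CPM in L2C 2, against 1.80 to 1.90 CPM.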

How the results depend on the processing

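Calls over all genes held within 1.5 times the 14327 of the main setting. There were 14254 with DESeq2, 14413 with total counts, 11479 at a log2 fold change of at least 1, and 18969 of 35622 without the filter on low counts. With all 24 libraries in the fit there were 15842 of 18864, and with counts thinned to the smallest total 13651. Without the 3 libraries with the extra number there were 13927, and 14504 to 14761 when 1 library was left out. With the replicate block 14085 genes were called; the numbers do not pair the libraries, and no correlation of same-numbered libraries was above 0.00523. Without thinning, the difference in genes with at least 10 counts, morula minus L2C, was -2154, against -3030 after thinning. None of the 221 genes named by rule reversed under the 18 settings, and 12 were no longer called under at least 1. Counts of list members moved most at a log2 fold change of at least 1 (24 of 80 counts) and with total counts (17 of 80). Of the mitochondrially encoded genes 1 was called higher without morula 1, 2 or 3. Of the primitive endoderm genes 1 in place of 2 was called lower without morula 1, 2 or 3, L2C 1 or the extra-number libraries. Depth limits the genes below about 1 CPM, whose levels rest on few reads.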

Other observations

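The lists of other cell types hold more genes than the defining markers summed above, and their tested members are given here. Of the cumulus and granulosa list, 6 genes were tested, with 2 higher and 4 lower. The call of Star, 1 of the higher genes, was lost without morula 2, morula 3 or L2C 2, with total counts and with the replicate block. Hsd17b1, a steroid dehydrogenase, had 12.7, 8.602, 13.0 and 11.3 CPM in morulae, against 0.215, 0.158, 0.150 and 0.272 CPM at L2C (log2 fold change 5.76, SE 0.31, adjusted p = 2.38e-12), and Kitl, the ligand of Kit, 0.638 ± 0.129 CPM in morulae and 8.28 ± 1.51 CPM at L2C (adjusted p = 3.64e-10, log2 fold change -3.69). All 3 tested genes of the sperm list were lower, among them Ldhc, the germ-cell lactate dehydrogenase (0.540 ± 0.412 CPM in morulae and 26.8 ± 3.57 CPM at L2C, adjusted p = 2.11e-12, log2 fold change -5.61). Of the blood list 1 of 3 was higher, Cd68 (11.6 ± 1.84 CPM in morulae and 3.82 ± 0.687 CPM at L2C, adjusted p = 4.41e-07, log2 fold change 1.59), which is also a lysosomal gene and a member of that list. Their part in the other results was not tested.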
